A study of Homo sapiens with 8 samples.

Results

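Germinal centre B cells are the B cells that divide and mutate their antibody genes inside lymphoid follicles, and a small set of genes marks that state. The 9 genes described here, BCL6, BACH2, MEF2B, MYBL1, LMO2, MME, CD27, SERPINA9 and GCSAM, were chosen by name, with earlier results of these data known. All 9 had a row among the 25377 genes of the RNA table and an adjusted p among the 17013 tested. Of the 70312 ATAC-seq peaks, 86 carried the name of a member, 5 annotated by HOMER as promoter-TSS peaks and 81 annotated as anything else. The cells were Raji, a line from a Burkitt lymphoma, a tumour that keeps a germinal centre profile. In the RGS-SE knockout (KO), CRISPR/Cas9 with a pair of guides was used to remove a super-enhancer between RGS1 and RGS13, labelled chr1:192515157-192741754 (hg38), and puromycin-selected single clones were taken. Wild-type (WT) Raji cells, grown in the same medium, were set against them. Each genotype had 2 RNA-seq libraries of poly(A) RNA and 2 ATAC-seq libraries, which count transposase insertions into open chromatin in about 50000 cells each, 8 libraries in all. How many clones were used is not given in the sources used here, so genotype and clone cannot be told apart. In such bulk libraries fewer cells of a type and less RNA per cell cannot be told apart either. The replicates are called biological without saying how the cultures were separated, and p-values measure the spread between these libraries.

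The germinal centre programme is built around BCL6, a repressor that keeps genes of plasma cells, of activation and of cell cycle arrest silent while the cell mutates its antibody genes. MEF2B helps to switch BCL6 on, and BACH2 restrains the plasma cell regulator PRDM1 beside it. When signals through CD40, the B cell receptor or NF-kB rise, IRF4 and PRDM1 are induced, BCL6 is shut off and the cell leaves for memory or plasma cell fate. Burkitt lymphomas resemble the dark zone of the germinal centre, where cells divide and mutate, and pathologists use MME (CD10), BCL6, LMO2, GCSAM, SERPINA9 and MYBL1 to recognise a germinal centre origin.

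The deposited tables give means over 4 libraries and fold changes, and the reads of each library were recovered from those means by arithmetic. This gave 1 solution for 98.89% of tested genes and 99.99% of peaks, all 9 members and all 86 peaks included. RNA libraries held 28831776 and 27890458 recovered reads in KO cells and 34299507 and 19321589 in WT cells. ATAC libraries held 21550872 and 18173207 in KO cells and 21903120 and 18748547 in WT cells. The WT RNA libraries stood further apart than the KO pair, with an SD of the log2 difference within a pair of 0.209 in KO and 0.521 in WT over 10587 genes with a mean of at least 100. Which genotype stands on top of the deposited fold changes is not written in the tables. For ATAC it was read from the peak at chr1:192609102-192609836 in the deleted interval. That peak had 0 and 0 reads in the libraries then called KO and 679 and 592 in those called WT. The RNA fold changes were taken to be coded the same way. In RNA, ENSG00000289995, a gene in the labelled interval, had 0 and 0 reads in libraries called KO and 44 and 2 in those called WT. Were either assay coded the other way, every direction given for it would turn. The labelled interval also spans RGS1 and RGS13 themselves, which had RNA in both genotypes, RGS1 at 4840.2 and 4805 normalised counts in KO libraries and 471 and 385 in WT libraries, so both genes were still transcribed in the KO cells. Of 8 B cell markers, all present in the table, 5 did not pass the test. CD79B fell by 0.78, while BLK rose by 0.46 and MS4A1, the most abundant of them, rose by 1.06 in the authors' deposited table (DESeq2 Wald adjusted p 2.03e-04, 0.0341 and 1.24e-06). The 7 markers with recovered reads, which leave out MS4A1, summed to 43108 and 42987 normalised counts in KO libraries and 41554 and 49021 in WT libraries. Of T cell, myeloid and epithelial or stromal markers, 2 of 7, 4 of 6 and 2 of 6 were in the table. Their T cell sum was 1.88 and 9.71 in KO libraries and 31.5 and 23.7 in WT libraries, and TRAC fell by 4.85 in the authors' deposited table (DESeq2 Wald adjusted p 0.0189). The myeloid sum, without the unresolved CSF1R, was 41.3 and 29.1 in KO libraries and 53.0 and 55.8 in WT libraries. The epithelial and stromal sum was 307 and 253 in KO libraries and 119 and 142 in WT libraries, nearly all from COL1A1, which rose by 1.10 in the authors' deposited table (DESeq2 Wald adjusted p 0.0180). The part of these shifts in the members' results was not tested.

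Among the 5 transcription regulators, BCL6 and LMO2 fell, MYBL1 rose and BACH2 and MEF2B did not pass the test, at an adjusted p under 0.05 in the authors' DESeq2 Wald test. Both surface proteins, MME and CD27, fell. SERPINA9 and GCSAM, which are not regulators of transcription, did not pass. So 4 of 9 members fell and 1 rose in the authors' deposited table, where 9.28% of all tested genes fell and 9.89% rose. The members' median log2 fold change was -0.42 in the authors' deposited table, beside 0.02 for all tested genes. The members were chosen with earlier results of these data known, so neither comparison with all tested genes is a blind one. Libraries did not overlap between the genotypes for any member, with both KO libraries below both WT libraries for 6 genes and above for 3, but 29.7% of tested genes lay wholly below and 32.9% wholly above in the same way.

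**Figure D1:**
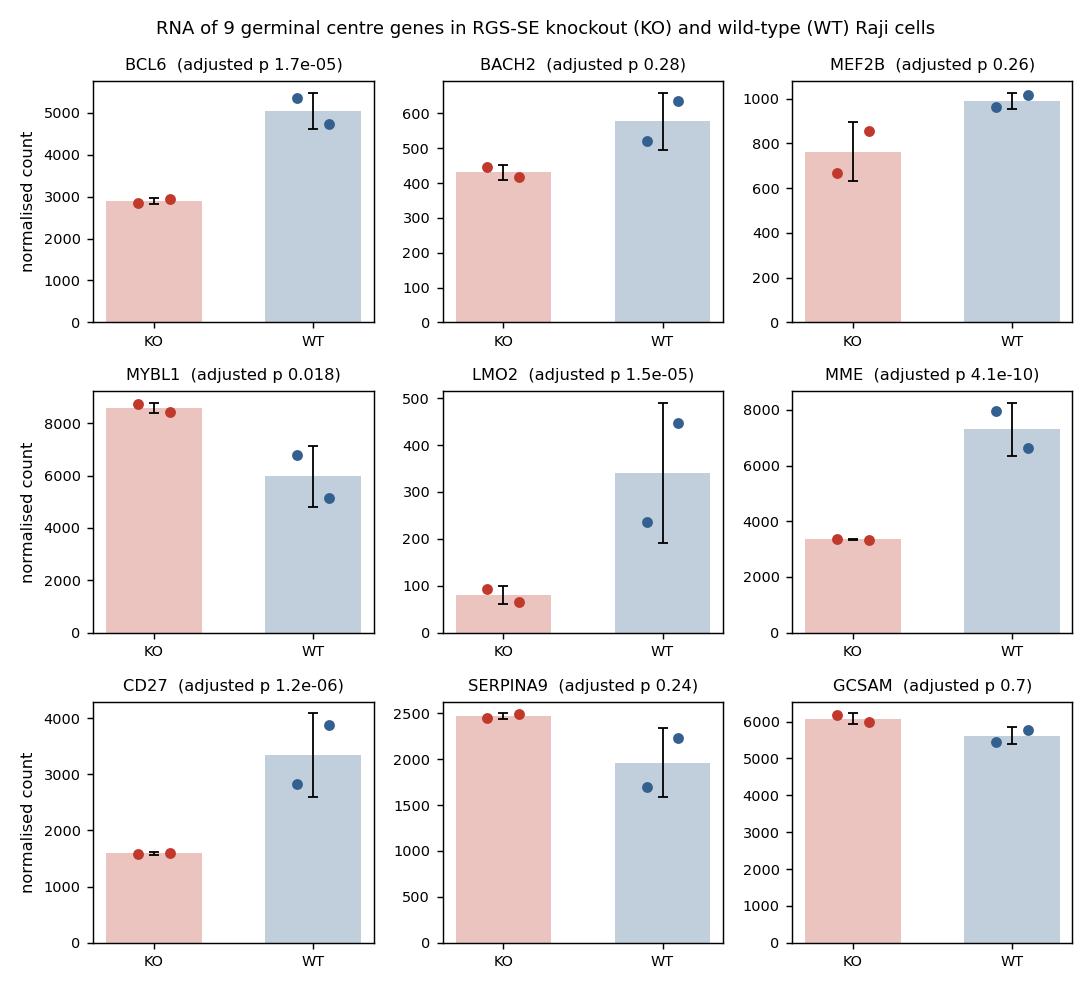
Normalised RNA counts (vertical axis, from 0) of the 9 genes in KO cells (left, red) and WT cells (right, blue). Points are the 2 libraries of a genotype, bars their mean and lines 1 SD; the KO points of BCL6, LMO2, MME and CD27 sit far below the WT points, and those of MYBL1 sit above.

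BCL6, at chr3:187721377-187745725 on the minus strand, had normalised counts of 2855 and 2955 in KO libraries, against 5359.9 and 4740.0 in WT libraries. Both KO libraries lay well below both WT libraries, and their mean was 57.5% of the WT mean. The log2 fold change was -0.80 (SE 0.16) in the authors' deposited table, with a DESeq2 Wald adjusted p of 1.73e-05. A limma fit on the recovered reads gave the same -0.80 with an adjusted p of 0.0103. With KO library a or KO library b left out of that fit, the adjusted p was 0.107 and 0.0763 at log2 fold changes of -0.77 and -0.82, since the spread then came from the wider WT pair alone.

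LMO2, an adaptor that bridges DNA-binding factors into complexes, had the fewest counts of the 9 and was the one with the lowest fold change. It had normalised counts of 93.9 and 66.0 in KO libraries, against 235 and 446 in WT libraries, so the KO libraries lay below both WT libraries, which themselves differed 1.90-fold. Those values rest on 100 and 68 reads in KO cells and 306 and 320 reads in WT cells. LMO2 RNA was 4.24-fold lower in KO cells in the authors' deposited table (log2 -2.09, SE 0.42, DESeq2 Wald adjusted p 1.53e-05), and limma gave -2.03 with an adjusted p of 0.0210. With Wald statistics divided by their spread over all genes the call was lost, at an adjusted p of 0.0761, as was that of BCL6 at 0.0785.

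MYBL1, a MYB-family activator of dividing germinal centre cells on chromosome 8, had normalised counts of 8725 and 8445 in KO libraries, against 6792 and 5153 in WT libraries. The KO pair lay above the WT pair, and the log2 fold change in the authors' deposited table was 0.52 (SE 0.17, DESeq2 Wald adjusted p 0.0178). That call depended on the test: limma on the recovered reads gave 0.54 with an adjusted p of 0.0649, and 0.409 and 0.331 with KO library a or b left out. Open chromatin around the gene was also higher in KO cells, with a median log2 of 0.39 over 126 peaks of other genes within 2 Mb in the authors' deposited table, and 0.13 of the RNA change was left after this median was subtracted (adjusted p 0.910).

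BACH2, a repressor of PRDM1 and other plasma cell genes, had normalised counts of 446 and 416 in KO libraries, against 520.3 and 636 in WT libraries. The groups did not overlap, but the difference did not pass, at -0.42 in the authors' deposited table (SE 0.26, DESeq2 Wald adjusted p 0.276), with a 95% interval from -0.93 to 0.08. The neighbourhood moved the opposite way, with a median log2 of 0.63 over 126 peaks of other genes within 2 Mb in the authors' deposited table. Subtracting such a median sets RNA against open chromatin, and the p-value then counts the SE of the RNA alone, with no error of the median. This holds for every gene whose RNA is set against its neighbours here. Relative to that median BACH2 RNA lay at -1.05 on the log2 scale (Wald adjusted p 0.00110), while its RNA change by itself did not pass. In limma it passed without WT library a, at -0.56 (adjusted p 0.00692), but not without WT library b, at -0.27 (adjusted p 0.147), nor without KO library a or b (adjusted p 0.669 and 0.763). Without WT library a that fit called 4261 genes lower and 5339 higher of 16808, and without WT library b 2852 lower and 3415 higher.

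MEF2B, a MADS-box activator of BCL6 transcription, had normalised counts of 670.1 and 857 in KO libraries, against 964 and 1017 in WT libraries. The KO pair lay below the WT pair without passing, at -0.38 in the authors' deposited table (SE 0.22, DESeq2 Wald adjusted p 0.262). In limma it passed without WT library a, at -0.42 (adjusted p 0.0411), but not without WT library b, at -0.35 (adjusted p 0.103), nor without KO library a or b, at -0.21 and -0.56 (adjusted p 0.872 and 0.478). Its values are uncertain because the readthrough gene BORCS8-MEF2B shares its exons, and how the authors counted shared reads is not given in the sources used here. The readthrough had normalised counts of 470.2 and 403 in KO libraries and 761 and 1193 in WT libraries. It fell by 1.16 on the log2 scale in the authors' deposited table (DESeq2 Wald adjusted p 2.25e-04). Summed over both, the normalised counts were 1140.4 and 1259.6 in KO libraries and 1725 and 2209.6 in WT libraries. The KO sums lay wholly below the WT sums, as 29.7% of tested genes did, and the difference of the sums was not tested.

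MME encodes CD10, a peptidase on the surface of germinal centre and precursor B cells. It had normalised counts of 3363 and 3345 in KO libraries, against 7979 and 6636 in WT libraries, so KO cells held 45.9% of the WT mean. MME RNA was 2.18-fold lower in the authors' deposited table (log2 -1.12, SE 0.16, DESeq2 Wald adjusted p 4.14e-10), the smallest adjusted p of the 9. MME and LMO2 were the members that also passed a test against a 1.5-fold change, with adjusted p of 0.0427 and 0.0181.

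CD27, the receptor for CD70 and a surface marker of germinal centre and memory B cells, had normalised counts of 1575 and 1607 in KO libraries, against 2819.6 and 3872 in WT libraries. The KO libraries differed 1.02-fold and both lay far below the WT pair. The log2 fold change was -1.07 in the authors' deposited table (SE 0.20, DESeq2 Wald adjusted p 1.23e-06). Peaks of other genes within 2 Mb had a median of -0.32 in the authors' deposited table, and -0.75 was left once this was subtracted (adjusted p 0.00245). CD27 shares exons with the antisense CD27-AS1, at most 58.6 normalised counts in any library, and with TAPBPL, at most 152, and how reads in shared exons were counted was not tested.

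SERPINA9, a serine protease inhibitor found almost only in germinal centre B cells, had normalised counts of 2449.7 and 2492 in KO libraries, against 1694 and 2229 in WT libraries. The KO pair lay above the WT pair, and the difference of 0.33 in the authors' deposited table (SE 0.19, DESeq2 Wald adjusted p 0.236) did not pass. In limma it passed without WT library b, at 0.54 (adjusted p 3.53e-04), but not without WT library a, at 0.15 (adjusted p 0.0679), nor without KO library a or b (adjusted p 0.694 and 0.717). GCSAM, an adaptor that strengthens B cell receptor signalling and slows cell movement, had normalised counts of 6188 and 5977 in KO libraries, against 5457 and 5785 in WT libraries. Its log2 fold change was 0.11 in the authors' deposited table (SE 0.15, DESeq2 Wald adjusted p 0.699), and its 95% interval of -0.18 to 0.41 holds no decrease of the size seen for MME or CD27. GCSAM too passed in limma without WT library b, at 0.16 (adjusted p 0.0301), but not without WT library a, at 0.07 (adjusted p 0.211), nor without KO library a or b (adjusted p 0.939 and 0.903). C3orf52, which overlaps GCSAM on the opposite strand, fell by 1.11 on the log2 scale in the authors' deposited table (DESeq2 Wald adjusted p 0.00446) with normalised counts of 184 and 159 in KO libraries and 359.9 and 382 in WT libraries.

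**Figure D2:**
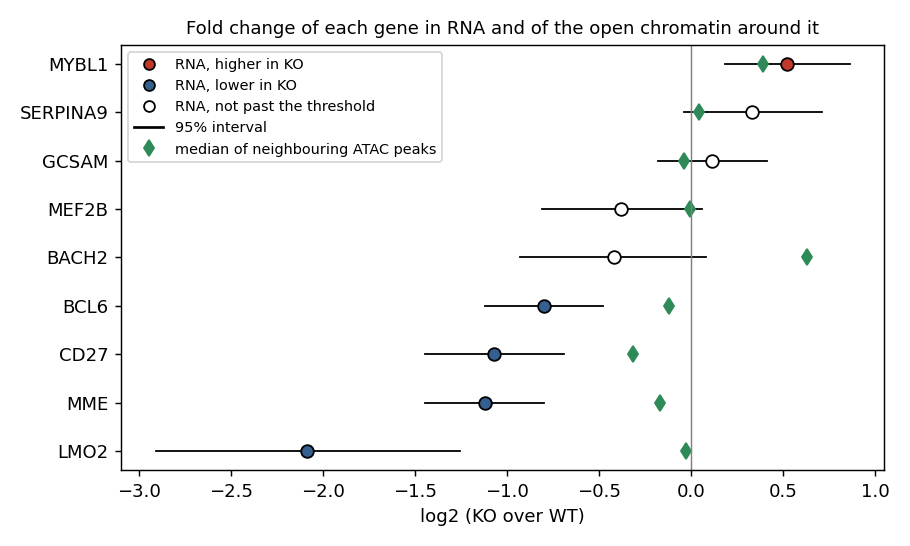
Log2 fold change of RNA, KO over WT (horizontal axis), for each gene, with its 95% interval, filled where the adjusted p was under 0.05 (red higher in KO, blue lower). Green diamonds are the median log2 fold change of ATAC peaks of other genes within 2 Mb; the diamond of BACH2 at 0.63 lies on the other side of 0 from its RNA at -0.42, and that of LMO2 lies at -0.03.

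Per kilobase of annotated exon, the order of the levels differed between the genotypes. In KO cells GCSAM was highest, at 1622 ± 39.7 normalised counts per kb (SD, n = 2), followed by CD27 at 1204 ± 17.3 and MYBL1 at 1186 ± 27.3, which did not differ beyond their spread. SERPINA9 followed at 965 ± 11.7, BCL6 at 489 ± 11.9, MEF2B at 366 ± 63.2 and MME at 340.0 ± 1.31, and the last pair overlapped within 1 SD. BACH2 at 39.6 ± 1.96 and LMO2 at 27.6 ± 6.79 were lowest in KO cells. In WT cells CD27 was highest, at 2531 ± 563 per kb, and GCSAM followed at 1499 ± 61.8. BCL6 at 851 ± 73.8, MYBL1 at 825 ± 160.1, SERPINA9 at 766 ± 148 and MME at 741 ± 96.3 were not separated beyond their spread in WT cells. MEF2B at 475 ± 18.0, LMO2 at 118 ± 51.7 and BACH2 at 53.2 ± 7.53 closed the order in WT cells.

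Open chromatin at the members was then compared, promoter peaks first. Of the 5 promoter peaks, 1 fell and 2 rose in the authors' deposited table, where 20.0% of all promoter peaks fell and 14.2% rose. The SERPINA9 promoter peak, chr14:94475783-94476846, had 499 and 438 normalised counts in KO libraries, against 658 and 670.5 in WT libraries. It was the member promoter that fell, by 0.50 on the log2 scale in the authors' deposited table (SE 0.11, DESeq2 Wald adjusted p 5.25e-05), while SERPINA9 RNA lay higher in KO cells without passing. The 250 bases before the SERPINA9 start, chr14:94476198-94476447 on the minus strand (RefSeq, GRCh38.p14), are shown because they hold a tandem repeat, with capitals for an octamer ATGCAAAT on either strand and for the E-box CAGCTG.
SERPINA9 promoter: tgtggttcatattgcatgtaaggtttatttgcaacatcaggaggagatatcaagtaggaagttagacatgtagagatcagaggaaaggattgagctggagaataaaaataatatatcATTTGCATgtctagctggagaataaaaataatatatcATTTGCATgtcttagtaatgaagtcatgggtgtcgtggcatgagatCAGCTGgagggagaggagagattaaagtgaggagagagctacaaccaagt
The octamer, bound by POU2F1 and POU2F2 with the B cell coactivator POU2AF1, stood there 2 times, each copy inside an exact repeat of 37 bases. Of 35116 RefSeq promoter windows of 300 bases, 1.77% held at least 1 octamer, among them SERPINA9 and MEF2B of the 11 windows of 7 members. LMO2 and MYBL1 had no window in that table.

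The BACH2 promoter peak, chr6:90296614-90298132, had 1129.9 and 1094 normalised counts in KO libraries, against 814 and 754 in WT libraries. It rose by 0.50 on the log2 scale in the authors' deposited table (SE 0.09, DESeq2 Wald adjusted p 5.57e-08), and lay 0.13 below the median of its neighbours, a value of -0.13 that did not pass (adjusted p 0.266). The MYBL1 promoter peak had 3823 and 3882 normalised counts in KO libraries, against 3286 and 3331 in WT libraries, and rose by 0.22 in the authors' deposited table (SE 0.04, DESeq2 Wald adjusted p 3.95e-06). Relative to the median of its neighbours it turned to -0.18 (adjusted p 3.89e-04). The BCL6 promoter peak, chr3:187745302-187746019, had 359 and 375 normalised counts in KO libraries, against 341 and 352 in WT libraries, and did not pass at 0.08 in the authors' deposited table (SE 0.14, DESeq2 Wald adjusted p 0.682). The 95% interval ran from -0.18 to 0.35. The CD27 promoter peak, chr12:6444118-6444436, had 211 and 246 normalised counts in KO libraries, against 258 and 296 in WT libraries, and did not pass at -0.28 in the authors' deposited table (SE 0.17, DESeq2 Wald adjusted p 0.194).

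The start sites of MME, GCSAM, MEF2B and CD27, and an inner start of LMO2, lay in peaks that HOMER annotated otherwise. The annotated CD27 start lay past its promoter peak, in a 5′ UTR peak, chr12:6444765-6445416. That CD27 peak had 336 and 370.1 normalised counts in KO libraries, against 403 and 470.3 in WT libraries. It did not pass at -0.31 in the authors' deposited table (SE 0.14, DESeq2 Wald adjusted p 0.0642). The MME start lay in a 5′ UTR peak with 720.4 and 667 normalised counts in KO libraries, against 573 and 504 in WT libraries. That peak rose by 0.36 in the authors' deposited table (SE 0.11, DESeq2 Wald adjusted p 0.00359) while MME RNA fell. The GCSAM start lay in a peak that HOMER gives to the neighbouring gene TBILA, with 1039 and 1171 normalised counts in KO libraries, against 1373 and 1319 in WT libraries. It is no member by the naming rule and fell by 0.29 in the authors' deposited table (DESeq2 Wald adjusted p 0.00139), while TBILA RNA had at most 24.4 normalised counts in any library. The MEF2B start of RefSeq lay in an intron peak with 733 and 831 normalised counts in KO libraries, against 843 and 919 in WT libraries, which did not pass at -0.17 in the authors' deposited table (DESeq2 Wald adjusted p 0.151).

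Of the 81 other peaks, 22 fell, 20 rose and 39 did not pass in the authors' deposited table, where 14.9% of all such peaks fell and 21.2% rose. Member peaks had a median of -0.06, beside 0.01 over all such peaks, both from the authors' deposited table. Rises and falls were unevenly spread over the genes: 15 of the 20 rises were BACH2 peaks, and the falls were spread over the other 8 genes. Peaks of 1 gene share their libraries and their neighbourhood and are no replicates of each other.

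**Figure D3:**
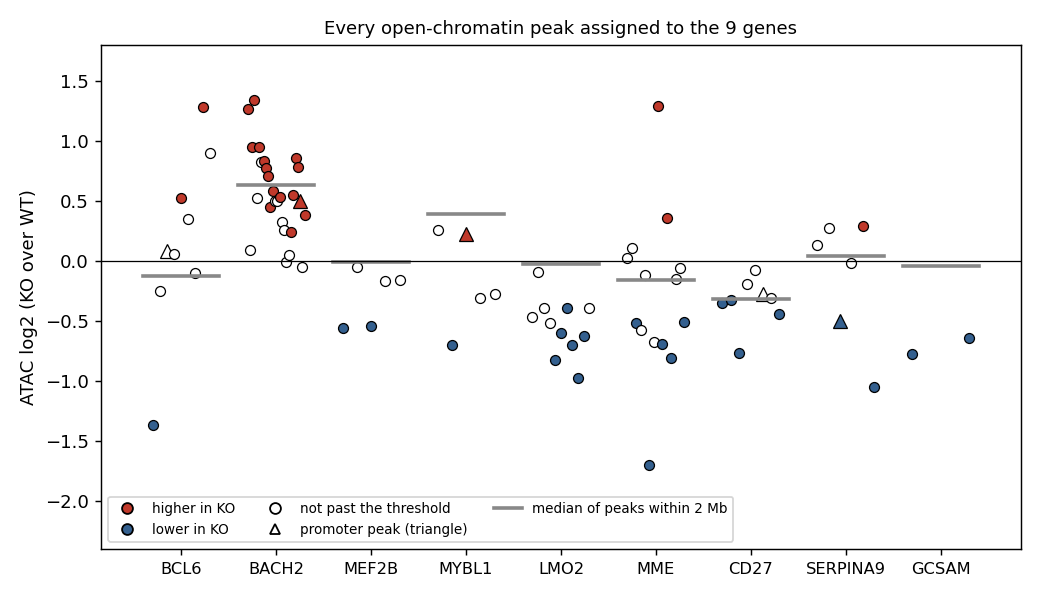
Log2 fold change, KO over WT (vertical axis), of each of the 86 peaks by gene; triangles are promoter peaks, red and blue fill mark peaks past the threshold, and the grey line is the median of peaks of other genes within 2 Mb. BACH2 peaks scatter around a grey line at 0.63, and LMO2 peaks lie below a grey line at -0.03.

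BCL6 had 9 peaks, of which 1 fell and 2 rose. The peak past the gene's 3′ end, chr3:187719701-187721052 and annotated as a transcription termination site, had 110.5 and 105 normalised counts in KO libraries, against 273 and 287 in WT libraries. Its KO mean was 38.5% of the WT mean, and it fell by 1.37 on the log2 scale in the authors' deposited table (SE 0.19, DESeq2 Wald adjusted p 1.15e-11). The peak 83629 bases before the start, chr3:187828642-187829551, lies in no annotated gene and had 799 and 742 normalised counts in KO libraries, against 329.5 and 304 in WT libraries. It rose by 1.28 in the authors' deposited table (SE 0.12, DESeq2 Wald adjusted p 1.88e-26) and had the highest mean of the BCL6 peaks. Another changed peak, 24845 bases before the start, rose by 0.52 in the authors' deposited table (DESeq2 Wald adjusted p 0.00978), at 260.0 and 299.8 normalised counts in KO libraries and 181 and 209.7 in WT libraries. The middle 300 bases of the first 2 peaks, chr3:187720227-187720526 and chr3:187828947-187829246 on the plus strand (hg38), are shown because they are the BCL6 regions that moved most, in opposite directions; capitals mark a match to any motif searched, here an AP-1 match TGANTCA in the first.
BCL6 gene end: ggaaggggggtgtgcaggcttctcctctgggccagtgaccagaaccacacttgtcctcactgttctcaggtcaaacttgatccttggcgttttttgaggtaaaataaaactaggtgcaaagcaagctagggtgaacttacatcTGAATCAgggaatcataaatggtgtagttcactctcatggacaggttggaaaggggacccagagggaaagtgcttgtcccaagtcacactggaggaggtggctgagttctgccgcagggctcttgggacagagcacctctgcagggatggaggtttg
BCL6 upstream: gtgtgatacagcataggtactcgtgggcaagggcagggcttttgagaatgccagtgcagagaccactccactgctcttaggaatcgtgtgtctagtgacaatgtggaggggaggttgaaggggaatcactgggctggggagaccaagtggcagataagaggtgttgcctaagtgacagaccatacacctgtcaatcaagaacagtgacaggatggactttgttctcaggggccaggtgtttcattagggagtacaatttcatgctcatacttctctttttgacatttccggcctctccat
None of the 7 motifs searched was in the middle of the upstream peak. The RefSeq promoter window of BCL6, past its start, held the BCL6 motif TTCCTNGAA, read as TTCCTAGAA on the plus strand at chr3:187745424-187745432, inside the promoter peak that did not pass; 1.56% of RefSeq promoter windows held this motif.

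LMO2 had 11 peaks, none of them annotated as a promoter, with log2 fold changes from -0.98 to -0.09 in the authors' deposited table. Of these 6 fell and none rose, and the neighbours' median was -0.03, so the same 6 in number fell relative to it. Summed over the 11 peaks, KO libraries held 65.9% of the WT mean. The peak 48327 bases before the start, chr11:33939897-33940909, had 135 and 142 normalised counts in KO libraries, against 259 and 288 in WT libraries, and fell by 0.98 in the authors' deposited table (SE 0.18, DESeq2 Wald adjusted p 8.04e-07). The peak 1857 bases before that same start, chr11:33893628-33894237, had 128 and 159 normalised counts in KO libraries, against 253 and 254 in WT libraries. It fell by 0.83 in the authors' deposited table (SE 0.19, DESeq2 Wald adjusted p 8.14e-05). A 5′ UTR peak lay 239 bases from another annotated start, inside the gene. It had 108 and 81.3 normalised counts in KO libraries, against 147 and 124 in WT libraries. That peak did not pass, with a DESeq2 Wald adjusted p of 0.0911 in what the authors deposited. The middle 300 bases of the peak at 48327 bases, chr11:33940254-33940553 on the plus strand (hg38), are shown as the LMO2 region with the lowest fold change; none of the 7 motifs searched was in them.
LMO2 at 48 kb: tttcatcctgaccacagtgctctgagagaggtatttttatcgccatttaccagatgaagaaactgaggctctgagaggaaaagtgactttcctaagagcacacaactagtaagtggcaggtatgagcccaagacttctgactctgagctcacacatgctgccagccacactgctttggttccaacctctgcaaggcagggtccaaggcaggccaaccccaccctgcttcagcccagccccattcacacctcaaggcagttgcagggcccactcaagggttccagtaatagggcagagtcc

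BACH2 had 26 peaks, most of them in its introns, with 16 higher and none lower in KO cells in the authors' deposited table. Their median log2 fold change was 0.52 in the authors' deposited table, close to the 0.63 of their neighbours, and relative to the neighbours 1 of the 26 rose and 5 fell. Which process raised the whole neighbourhood was not tested. The intron peak 174458 bases from the start, chr6:90121884-90122886, had 339.8 and 301 normalised counts in KO libraries, against 137 and 115 in WT libraries. It rose by 1.34 in the authors' deposited table (SE 0.18, DESeq2 Wald adjusted p 4.50e-12), and 0.72 was left relative to the neighbours. The most open BACH2 peak, chr6:90285285-90286724 in the intron 10838 bases from the start, had 2073 and 2091 normalised counts in KO libraries, against 1747 and 1792 in WT libraries. It rose by 0.24 in the authors' deposited table (SE 0.06, DESeq2 Wald adjusted p 3.82e-04) and turned to -0.40 relative to the neighbours (adjusted p 4.86e-10). Its middle, chr6:90285855-90286154 on the plus strand (hg38), is shown because it held an octamer and an E-box, in capitals.
BACH2 intron: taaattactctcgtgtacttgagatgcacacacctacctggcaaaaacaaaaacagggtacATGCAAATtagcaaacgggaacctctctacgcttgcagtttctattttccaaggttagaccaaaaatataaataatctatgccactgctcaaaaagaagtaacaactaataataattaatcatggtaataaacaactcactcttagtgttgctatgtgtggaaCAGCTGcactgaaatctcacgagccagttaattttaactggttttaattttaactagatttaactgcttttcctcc
A pair of lncRNAs on the opposite strand overlaps BACH2 and moved in opposite directions. ENSG00000260271 fell by 1.20 in the authors' deposited table (DESeq2 Wald adjusted p 0.0100), at 121 and 124 normalised counts in KO libraries and 237 and 326 in WT libraries. ENSG00000287789 rose by 1.94 in the authors' deposited table (DESeq2 Wald adjusted p 0.0245), at 129 and 78.7 normalised counts in KO libraries and 37.6 and 15.3 in WT libraries.

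**Figure D4:**
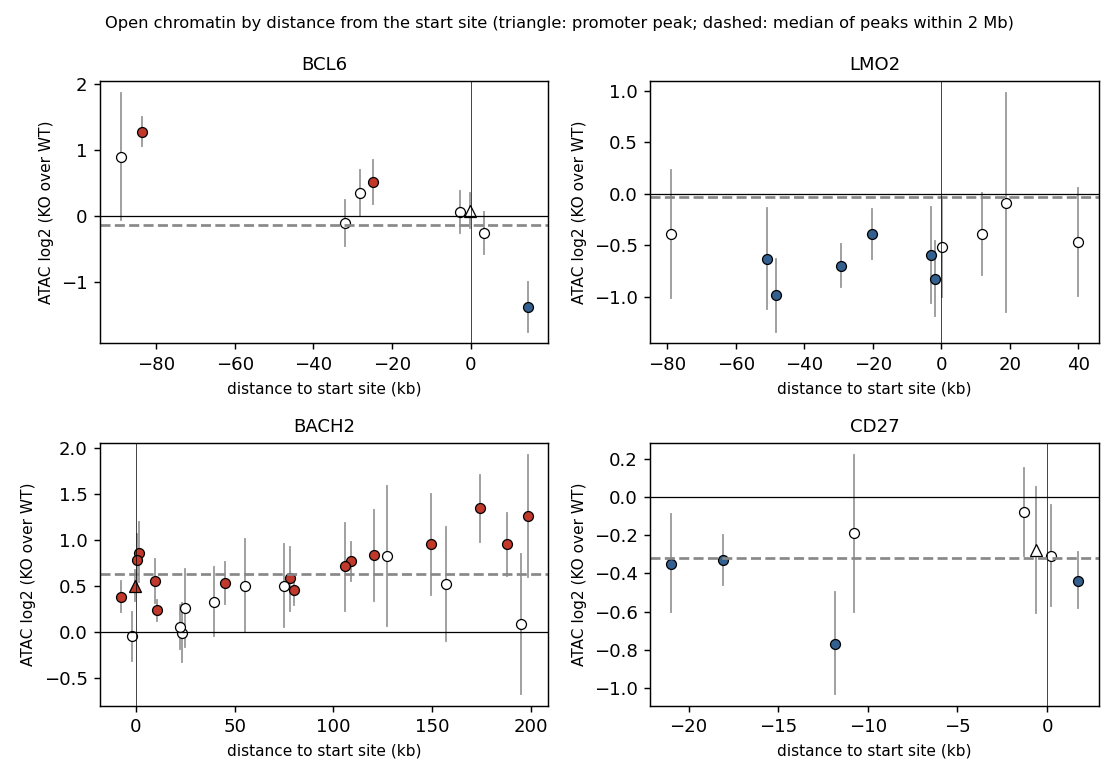
Log2 fold change of ATAC signal, KO over WT (vertical axes), against distance to the start site in kb (horizontal axes) for BCL6, LMO2, BACH2 and CD27, with 95% intervals; red and blue fill mark peaks past the threshold, higher and lower in KO, and the dashed line is the median of peaks of other genes within 2 Mb. BCL6 has its highest value far upstream and its lowest past the gene end, while the LMO2 values all lie below the dashed line. Distances are to the start site chosen by HOMER, which was not the same for all LMO2 peaks.

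MME had 14 peaks, of which 5 fell and 2 rose in the authors' deposited table. Its most open distal peak, chr3:155110953-155111895 in an intron, had 616 and 637 normalised counts in KO libraries, against 713 and 681 in WT libraries, and did not pass at -0.15 in the authors' deposited table (DESeq2 Wald adjusted p 0.231). The lowest and the highest fold changes were at weak peaks. The peak 70261 bases before the start had 5.57 and 16.5 normalised counts in KO libraries, against 30.0 and 40.2 in WT libraries, and fell by 1.70 in the authors' deposited table (SE 0.58, DESeq2 Wald adjusted p 0.0123). That call rests on 6 and 15 reads in KO libraries, and limma gave -1.05 without KO library a and -2.54 without KO library b. An intron peak 22068 bases before the start used by HOMER had 39.0 and 39.5 normalised counts in KO libraries, against 17.2 and 14.8 in WT libraries, and rose by 1.29 in the authors' deposited table (SE 0.49, DESeq2 Wald adjusted p 0.0256).

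CD27 had 8 peaks, of which 4 fell and none rose in the authors' deposited table. The median of the 8 was -0.32, equal to that of the neighbours, and relative to it 1 fell. That was the peak 11851 bases before the start, chr12:6432490-6433577, with 303 and 265 normalised counts in KO libraries, against 492 and 475 in WT libraries, and a log2 fold change of -0.77 in the authors' deposited table (SE 0.14, DESeq2 Wald adjusted p 1.86e-07). The most open CD27 peak by mean, chr12:6425992-6427679, had 1613 and 1467 normalised counts in KO libraries, against 1938 and 1931 in WT libraries, and its -0.33 in the authors' deposited table (DESeq2 Wald adjusted p 5.25e-06) became -0.01 relative to the neighbours.

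SERPINA9 had a peak 13586 bases before the start, chr14:94489276-94490290, which HOMER annotated as an intron of another gene. Its middle overlaps an exon of SERPINA12. That peak had 87.3 and 109.8 normalised counts in KO libraries, against 209 and 197 in WT libraries. It fell by 1.05 in the authors' deposited table (SE 0.22, DESeq2 Wald adjusted p 1.10e-05). Its most open peak, 7148 bases before the start, had 816 and 784 normalised counts in KO libraries, against 658 and 655 in WT libraries, and rose by 0.29 in the authors' deposited table (SE 0.10, DESeq2 Wald adjusted p 0.00981). Both GCSAM peaks fell, at 389.9 and 385 normalised counts in KO libraries against 584 and 628 in WT libraries for the intron peak. That peak fell by 0.64 and the exon peak by 0.78 in the authors' deposited table (DESeq2 Wald adjusted p 4.47e-07 and 0.0283), while GCSAM RNA did not pass. Both peaks also lie within C3orf52, and the middle of the intron peak overlaps an exon of C3orf52. C3orf52 RNA fell by 1.11 in the authors' deposited table (DESeq2 Wald adjusted p 0.00446). Which of these genes the peaks belong to was not tested. MEF2B had 5 peaks, all in introns, and the most open, chr19:19155430-19156240, had 1219 and 1232 normalised counts in KO libraries, against 1240.1 and 1293 in WT libraries. It did not pass at -0.05 in the authors' deposited table (DESeq2 Wald adjusted p 0.662), and 2 weaker peaks fell, by 0.56 and 0.54 there. The most open distal MYBL1 peak, in an intron, had 302 and 309 normalised counts in KO libraries, against 481 and 513 in WT libraries, and fell by 0.70 in the authors' deposited table (SE 0.13, DESeq2 Wald adjusted p 6.82e-07), against the direction of MYBL1 RNA.

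Octamers stood in the middle 300 bases of 11 of the 81 non-promoter member peaks, chromosome 8 included, against 4.99% of all 61892 such peaks. They were in 3 of the 20 peaks that rose and 3 of the 22 that fell. The AP-1 motif was in 11 member peaks, 1 that rose and 5 that fell, against 11.7% of all such peaks. The BCL6 motif was in 2 member peaks, 1 in the first intron of BACH2 that rose and 1 in an MME intron that fell, against 1.51% of all. The NF-kB motif GGANNTTCC was in 3 (4.05% of all), the ETS and IRF composite GGAANNGAA in 8 (10.2%), the E-box in 17 (20.9%) and the MEF2 motif TATTTATAG in none (0.527%). Motifs were read on both strands, matches of different motifs did not have to be apart, and a match is a stretch of letters, not a bound site.

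The genes around the members in the same circuit were listed from textbook knowledge, but with earlier results of these data known. The shares of all tested genes beside their counts are therefore no blind comparison. Of the 90 listed genes in the table, 89 were tested. Genes that BCL6 is known to repress were mostly higher in KO cells: 14 of 21 tested rose, 1 fell and 6 did not pass, with a median log2 of 1.33, beside 0.02 for all tested genes, of which 9.89% rose and 9.28% fell, in the authors' deposited table. IRF4, the factor that opens plasma cell fate and shuts off BCL6, had normalised counts of 9327 and 8742 in KO libraries, against 725 and 717 in WT libraries. IRF4 rose by 3.65 in the authors' deposited table (SE 0.16, DESeq2 Wald adjusted p 1.25e-112). PRDM1, the plasma cell regulator that BCL6 and BACH2 both repress, had 1681 and 1585 normalised counts in KO libraries, against 291 and 382 in WT libraries, and rose by 2.29 in the authors' deposited table (DESeq2 Wald adjusted p 3.41e-22). Peaks of other genes within 2 Mb of PRDM1 had a median of 0.55, and 1.74 was left relative to it (Wald adjusted p 1.14e-12). The chemokine CXCL10, at 3.96, and GPR183, a receptor that draws B cells out of the follicle centre, at 3.22, rose beside IRF4 and PRDM1 in the authors' deposited table (DESeq2 Wald adjusted p 3.13e-58 and 1.60e-29). The exception was CD274, which encodes the checkpoint ligand PD-L1, with 7.51 and 6.80 normalised counts in KO libraries, against 102 and 165 in WT libraries. CD274 fell by 4.21 in the authors' deposited table (SE 0.69, DESeq2 Wald adjusted p 3.90e-08), in a neighbourhood whose peaks had a median of -1.10.

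The corepressors through which BCL6 acts were mixed, with 4 of 17 lower and 1 higher in the authors' deposited table, where 9.28% of tested genes fell and 9.89% rose, and a median of -0.26. The single rise is no more than that background share. The histone deacetylases HDAC5, HDAC9 and HDAC7 fell by 1.42, 1.31 and 0.60 in the authors' deposited table, and TBL1X, a subunit of the NCOR complex, fell by 0.91 (DESeq2 Wald adjusted p 4.50e-07, 9.72e-07, 0.00970 and 6.65e-06). HDAC4, of the same class IIa as these deacetylases, did not pass at 0.03 in the authors' deposited table (DESeq2 Wald adjusted p 0.955). RNF2, the ubiquitin ligase of Polycomb complexes, rose by 1.97 in the authors' deposited table (DESeq2 Wald adjusted p 1.64e-07), at 442 and 463 normalised counts in KO libraries and 137 and 92.1 in WT libraries.

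Of 32 other germinal centre genes, 5 fell, 4 rose and 23 did not pass, with a median of -0.05 in the authors' deposited table. Of all tested genes, 9.28% fell and 9.89% rose. The signalling adaptor STAP1 fell by 0.93, the transcription factor IRF8 by 0.84 and IRAG2 by 0.59 in the authors' deposited table (DESeq2 Wald adjusted p 4.51e-07, 5.28e-07 and 6.82e-04). Relative to their neighbours' peaks, IRF8 was at -0.29 and IRAG2 at -0.11, and neither passed (adjusted p 0.265 and 0.904). CD40 rose by 1.19, CXCR4 by 0.89, VPREB3 by 1.69 and UNG by 0.52 in the authors' deposited table (DESeq2 Wald adjusted p 1.29e-10, 3.53e-05, 0.0257 and 0.0490). In limma, VPREB3 and UNG did not pass (adjusted p 0.0670 and 0.0505), and VPREB3 lay at 2.36 without WT library a and 1.19 without WT library b.

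Light zone genes, which mark cells that have met antigen and T cell help, held 7 rises and no fall among 13 tested, with a median of 0.75 in the authors' deposited table, beside the same 9.89% of all tested genes higher and 9.28% lower. The homing receptor CCR7 had 7202 and 6826 normalised counts in KO libraries, against 804 and 1050.4 in WT libraries, and rose by 2.92 in the authors' deposited table (DESeq2 Wald adjusted p 5.00e-56). TRAF1 and NFKBIA, both targets of NF-kB, rose by 1.59 and 1.41, and the receptor SLAMF1 by 1.46 in the authors' deposited table (DESeq2 Wald adjusted p 2.15e-18, 7.47e-16 and 2.28e-12). Dark zone genes held 4 falls and 1 rise among 12 tested, with a median of -0.13 in the authors' deposited table, beside 9.28% of all tested genes lower and 9.89% higher. The single rise is at that background share. CDC20 and AURKA, which act in mitosis, fell, at -0.66 and -0.50, as did LMO4, at -0.62, in the authors' deposited table (DESeq2 Wald adjusted p 0.00119, 0.0156 and 0.00433). CCNB1, which also acts in mitosis, and the proliferation gene MKI67 did not pass, at 0.30 and -0.26 there (DESeq2 Wald adjusted p 0.214 and 0.220). CXCR4, the receptor that holds cells in the dark zone, rose. Relative to its neighbours' peaks LMO4 was at -0.42 and did not pass (adjusted p 0.132). Over all listed genes, 13 fell and 26 rose in the authors' deposited table, beside the same 9.28% and 9.89% of all tested genes. Limma with 1 library left out called fewer of them without a KO library than without a WT library, as it did over all genes. Leaving out either KO library ended the limma calls of IRF8, IRAG2, CXCR4, HDAC7, TBL1X, CDC20, AURKA and LMO4, with KO library a out at adjusted p of 0.0514, 0.278, 0.0844, 0.284, 0.0561, 0.217, 0.440 and 0.359 in that order.

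**Figure D5:**
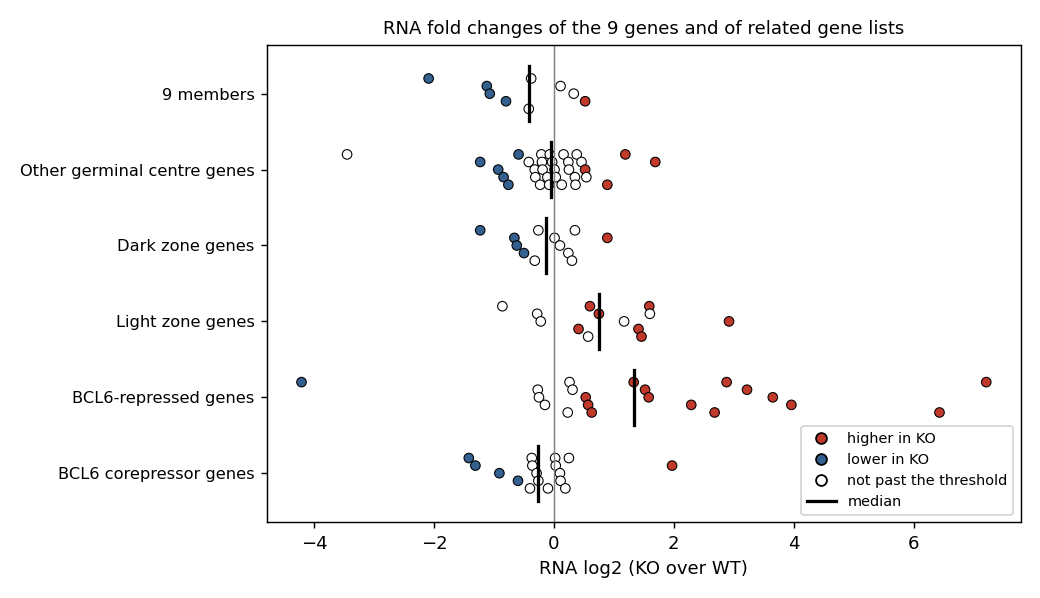
Log2 fold change of RNA, KO over WT (horizontal axis), of the 9 members and of the tested genes of 5 related lists; each point is a gene, filled where its adjusted p was under 0.05, and the vertical line is the list's median. The BCL6-repressed genes lie mostly right of 0 with a median of 1.33, while the 9 members have a median of -0.42.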

How the data were processed

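RNA-seq and ATAC-seq of KO and WT Raji cells were analysed, 2 libraries per genotype and assay. The submitters' processing notes name Trim Galore, Trimmomatic, cutadapt, STAR, featureCounts, Bowtie2, HOMER and DESeq2 with GRCh38 or hg38. The sources used here give no version, setting, peak caller or strand setting of the counting. By their file headers, the deposited signal is the mean over 4 libraries of counts divided by the authors' size factors. The authors' log2 fold change and its SE, the Wald score and the p-value are DESeq2 results, and the other deposited unit is each peak's distance to a start site in bp.

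Reads per library were computed here. A deposited mean is a sum of whole reads times 4 fixed steps, 1 per library, and the only whole reads kept were those whose own fit returned the deposited fold change within 0.0001. Libraries were tied to genotypes by those fold changes and named a (deeper) and b. The search was tested on simulated data. Replicate pairs differed by more than counting noise in both assays. The main test was the authors' deposited Wald test, adjusted p under 0.05; limma 3.58.1 in R 4.3.3 on log2 CPM of the recovered reads was an alternative. Other alternatives changed the adjustment, the minimum mean (100), the tested fold (1.5), the centring and the standard errors. Centring on neighbours subtracted a median of ATAC fold changes, from RNA as well as from peaks, and added no error for that median. Library a or b was left out in limma alone, and a group's lone library was then taken to vary like the other group.

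Members and lists were chosen with earlier results of these data known, and the named genes were all members, up to 4 per list and direction by adjusted p, and genes that overlap a member or share its promoter peak. Named peaks were the promoter peaks and, per gene, the distal peak with the highest mean. The changed distal peaks with the highest and lowest fold change per gene were also named. The start-site peaks, the BCL6 and LMO2 peaks at 24845 and 1857 bases and RNAs beside BACH2 were added after their values were seen. So were HDAC4, CCNB1, MKI67 and ENSG00000289995. Gene positions came from GENCODE on GRCh38, peak sequences from hg38 and promoter windows, 250 bases before to 50 after a start, from RefSeq. Normalised counts carry counting error beside the spread between libraries, and 2 libraries a genotype limit their precision. A listed gene and a member peak that the naming rule picks are not reported here; both stay in the counts.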

Additional observations from a re-analysis of the deposited data

How the results depend on the processing

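No paired analysis was possible because the recovered libraries cannot be tied to replicate numbers. Adjusting over every row with a p-value, a minimum mean of 100 and centring on the overall median (-0.01 in RNA, -0.02 in ATAC) kept each count of members and listed genes within 1.5 times of its value in the report. Centring on the ATAC median within 2 Mb left 0 member genes higher, 2 promoter peaks lower and 0 higher, and 7 distal peaks higher. It turned the MME peak at 31413 bases to 0.02, the MYBL1 promoter to -0.18, the BACH2 peak at 10838 bases to -0.40, the BACH2 promoter to -0.13 and the CD27 promoter to 0.04. Against a 1.5-fold change, 2 member genes were lower and 0 higher, 0 promoter peaks were lower and 0 higher, 1 distal peak was lower and 2 higher, and 3 listed genes were lower and 14 higher. With Wald statistics divided by their robust spread (1.70 in RNA, 2.46 in ATAC), 2 member genes (MME and CD27) were lower and 0 higher, 0 promoter peaks lower and 0 higher, 0 distal peaks lower and 1 higher, and 6 listed genes lower and 15 higher. Shares of all features past the 1.5-fold and spread-scaled tests are not given here, so these counts stand without a background. In limma on the recovered reads, 0 member genes were higher and 4 lower. Over all 16808 genes, that fit called 1126 lower and 1247 higher. Peaks within 1 kb of a start counted 4 higher, and distal peaks within 100 kb 13 higher. Leave-one-out limma fits gave 3 to 6 member genes lower and 0 to 3 higher, 1 to 2 promoter peaks lower, 5 to 31 listed genes lower and 15 to 41 higher. In RNA, the leave-one-out fits without a WT library called far more of all genes, lower and higher, than those without a KO library. The upper ends of the ranges for member and listed genes all came from fits without a WT library. Whether those counts exceed the larger share of all genes called there was not tested. The limma and leave-one-out fits of peaks and listed genes were chosen after the data were seen. Among member genes LMO2 had the fewest reads, 68 in its lowest library; the MME peak at 70261 bases had 6 and CD274 7 in theirs.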
